A study of Acer rubrum with 15 samples.

Results

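Leaves of cuttings of the maple Acer rubrum L. 'Autumn Blaze' kept for 14 days in a cool regime (LC, 15 °C by day and 5 °C by night) were compared with leaves kept for 14 days in a warm regime (CC, 30 °C by day and 20 °C by night), both under 100% full light. The comparison uses 6 of the 15 small RNA libraries of the series, 3 per regime, chosen by their labels. It covers the 419 rows of the deposited table, of 8849, that hold known mature miRNAs, known miRNA hairpins or predicted miRNAs. The other classes of small RNA enter as shares of each library. The remaining groups are used only where a result turns on them, and have 3 libraries each. They are LL and CL, kept for 14 days at the same cool and warm temperatures under 40% light, and Control, sampled at day 0 in an ordinary greenhouse. The labels call the 3 libraries of a group biological replicates and do not say whether each came from a separate plant. All plants are cuttings of 1 cultivar, and a whole leaf mixes all its cell types. Less of a miRNA per cell and fewer of the cells that hold it therefore cannot be told apart.

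Plant miRNAs are cut by DICER-LIKE 1 from hairpin transcripts, loaded into ARGONAUTE proteins and pair almost fully with the messenger RNAs that they cut or silence. Most conserved families are named by a number and target 1 group of genes, often transcription factors. Several others respond to phosphate, sulfate or copper supply and adjust transporters, ubiquitin ligases or copper proteins. Roles given below are known from Arabidopsis unless another plant is named, and no target was measured here.

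The LC libraries held 15652847 to 16291802 reads and the CC libraries 20064125 to 20607370. LC replicate 1 stood apart: reads of the 3 miRNA classes were 26.4% of that library, against 14.8% and 15.7% in the other LC libraries and 13.3% to 16.1% in CC. By scaled level it was the highest LC library for 12 of the 15 families that rose, 3 of the 5 that fell and 21 of all 34 tested. That order depends in part on the scaling. The TMM factor of LC replicate 1 for families was 0.505, against 1.179 and 1.043 in LC replicates 2 and 3. A low factor raises all levels of a library. miR390, for example, had 1688, 1692 and 1578 reads in LC libraries 1 to 3. Results that rest on LC replicate 1 are given with and without it. Levels are counts per 1000000 tested miRNA reads, not per 1000000 reads of the library, after TMM scaling (CPM). For families the tested reads are mature, hairpin and predicted reads, 2322541 to 4300496 per LC or CC library. For single entries they are mature and predicted reads, 2184357 to 4045401. Because of the TMM factors, the levels of 1 library can sum to more than 1000000. Differences are log2 values, LC minus CC, ± the standard error of the fit (n = 3 libraries per group). An entry was called where edgeR's quasi-likelihood test gave a Benjamini-Hochberg adjusted p under 0.05. Of 34 families tested, 20 (58.8%) were called, 15 (44.1%) higher and 5 (14.7%) lower in LC, and in 19 (55.9%) the groups did not overlap. Without LC replicate 1 the count was 15, with 12 higher and 3 lower. When the scaling used the families alone it was also 15, with 9 higher and 6 lower. The median difference over all families is 0.64, and that other scaling shifts it by -0.54, so the sign of a small difference depends on the scaling. The order of the families was not compared between settings. The most abundant known entries were of the families miR166, miR858, miR398 and miR159. Of these only miR166 is on the leaf and meristem list used below. The names were read off these data, so their abundance is no test of the tissue. No family of the reproductive-tissue list was in the table.

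All 4 measured families of the phosphate and sulfate list were higher in the cool regime, with a median difference of 3.62 against 0.64 over all families. miR399, which lowers the ubiquitin-conjugating enzyme PHO2 under phosphate shortage, had 1653, 328 and 421 CPM in LC libraries 1 to 3, against 38.1, 31.6 and 27.2 CPM in CC. Every LC library lay above every CC library, by 24.7-fold in the fit (4.63 ± 0.56, edgeR adjusted p = 1.692e-05). Without LC replicate 1 the difference was 3.50 (adjusted p = 1.104e-06). miR827, which targets the phosphate ubiquitin ligase NLA, had 76.9, 80.6 and 47.5 CPM in LC, against 3.87, 3.35 and 4.43 CPM in CC. These groups were also far apart, 17.4-fold (4.12 ± 0.24, adjusted p = 1.539e-08), and miR827 had the smallest adjusted p of all families. miR2111, a shoot-made regulator of a root F-box gene in Lotus, had 66.3, 39.8 and 42.9 CPM in LC, against 6.78, 4.09 and 6.01 CPM in CC. Its 8.74-fold rise (3.13 ± 0.37, adjusted p = 1.692e-05) rests almost wholly on hairpin-class reads, which were 99.8% of its reads in the 6 libraries. miR395, which targets ATP sulfurylases and a sulfate transporter, had 1165, 561 and 858.4 CPM in LC, against 178, 197 and 261 CPM in CC (2.02 ± 0.35, adjusted p = 0.0003126). Leaving out LC replicate 1 gave a miR395 difference of 1.67 (edgeR adjusted p = 0.0008306). The LC and CC libraries did not overlap, although the name that carried the reads differed from library to library, as described below. At day 0 the Control leaves stood at 2019 CPM for miR399 and 203 CPM for miR827, above both full-light regimes. Control leaves had 22.0 CPM of miR395 and 6.60 CPM of miR2111, near or below the CC levels.

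The 3 measured copper families were higher as well, with a median difference of 2.84, and here 1 library set much of the size. miR398, which represses copper/zinc superoxide dismutases, reached 519749 CPM in LC replicate 1 and 53337 and 41864 CPM in the other LC libraries, against 25033, 6235 and 4916 CPM in CC. The lowest LC library was still above the highest CC library, and the difference was 4.09 ± 0.96 (edgeR adjusted p = 0.003441), or 2.04 without LC replicate 1 (adjusted p = 0.01517) and 5.20 without CC replicate 1 (adjusted p = 0.002027). miR397, a regulator of laccases, had 173, 67.9 and 57.8 CPM in LC, against 30.7, 15.2 and 11.7 CPM in CC (2.37 ± 0.48, adjusted p = 0.001166). Its groups did not overlap, and without LC replicate 1 the difference was 1.73. miR408, which targets plantacyanin and laccases, had 1285, 139.9 and 732 CPM in LC, against 181, 64.7 and 54.7 CPM in CC (2.84 ± 0.85, adjusted p = 0.01348). LC replicate 2 lay below CC replicate 1, so the groups overlapped, and the call was lost without CC replicate 2 (adjusted p = 0.05099) or CC replicate 3 (adjusted p = 0.05525). Without LC replicate 1 the miR408 difference was 2.04 and without CC replicate 1 it was 3.59. In all 3 copper families replicate 1 was the highest library of both regimes. The Control mean was above both regimes for all 3, at 303091, 1852 and 6516 CPM for miR398, miR397 and miR408.

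**Figure D1:**
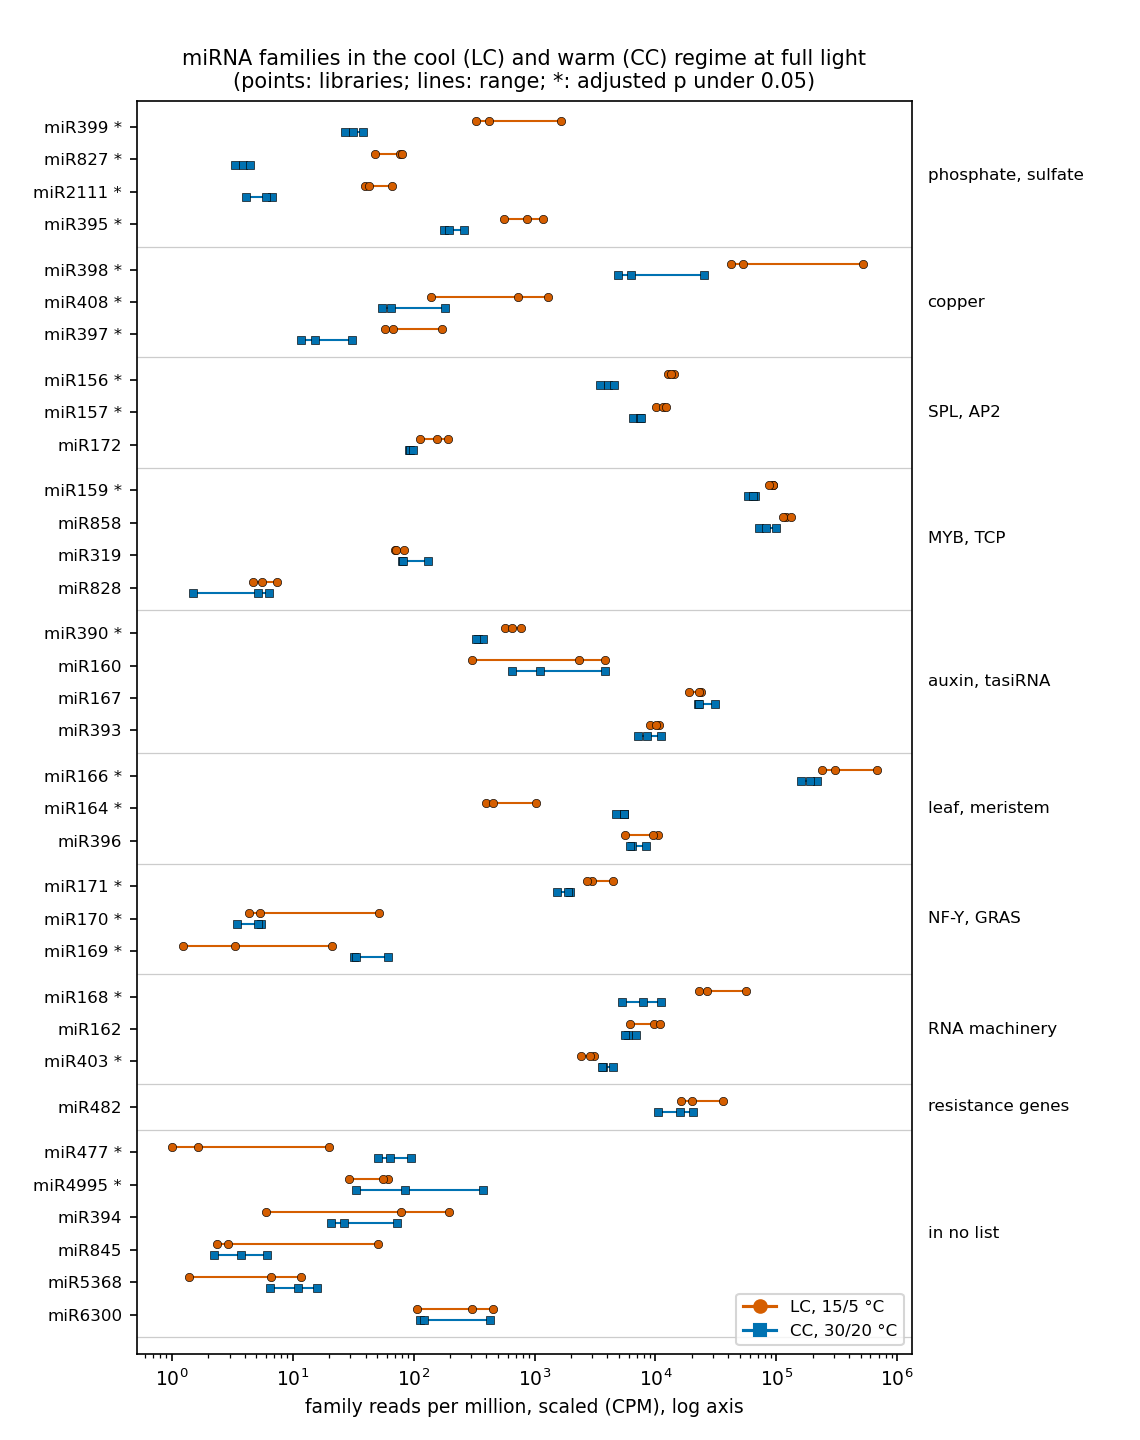
Level of each tested family in the 3 LC libraries (circles, upper line of each pair) and the 3 CC libraries (squares, lower line), in CPM on a log axis, grouped by the role of their targets; lines span the range and asterisks mark families called. The phosphate, sulfate and copper families lie to the right in LC, miR164, miR169 and miR477 lie to the left, and 19 of the 34 pairs do not overlap.

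Among families that time the change from juvenile to adult growth, miR156 and miR157 rose. miR156, which represses SPL transcription factors, had 12684, 14273 and 13479 CPM in LC, against 3491, 4012 and 4538 CPM in CC. The LC libraries lay within a narrow band, all above CC (1.75 ± 0.23, edgeR adjusted p = 3.562e-05). miR157, whose targets are the same factors, had 10172, 11492 and 12120.3 CPM in LC, against 6484, 7431 and 7634 CPM in CC (0.65 ± 0.19, adjusted p = 0.01348). These groups did not overlap either, but the miR157 difference was 0.11 when the families alone set the scale (adjusted p = 0.9102) and 0.50 with library size alone (adjusted p = 0.2695). miR172, which acts on AP2-type factors and usually runs opposite to miR156 with age, had 113, 155 and 192 CPM in LC, against 91.7, 93 and 99.3 CPM in CC. Its groups did not overlap, yet the difference of 0.70 ± 0.29 missed the threshold (adjusted p = 0.05426). It passed under 5 of 17 alternatives, among them leaving out LC replicate 1 (0.83, adjusted p = 0.02542) and DESeq2, while the most abundant member alone gave -0.54. The list's median was 0.70, close to the 0.64 of all families.

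Of the 4 MYB-targeting families 1 was called. miR159, which represses GAMYB-like factors, had 94492, 94154 and 87471 CPM in LC, against 57716, 66173 and 64457 CPM in CC (0.55 ± 0.20, edgeR adjusted p = 0.02941). The groups did not overlap, but the call was lost when any 1 library other than LC replicate 3 was left out (adjusted p up to 0.1828) and the difference was 0.01 when families alone set the scale. miR858, which targets MYB factors of flavonol synthesis, had 119415, 131137 and 113313 CPM in LC, against 99038, 71521 and 81989 CPM in CC. All 3 LC libraries were above CC, while the difference of 0.53 ± 0.38 did not pass (adjusted p = 0.2537), and it was -0.01 with the families-alone scaling. miR828, which sets off the cutting of MYB transcripts that promote anthocyanin synthesis, had 4 to 20 reads per library, too few to separate the regimes (0.43 ± 0.69, and -0.11 with the families-alone scaling). miR319, a regulator of TCP factors of leaf growth, overlapped between the regimes (-0.38 ± 0.48).

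The auxin families mostly did not pass. miR390, which starts the production of TAS3 small RNAs against AUXIN RESPONSE FACTOR transcripts, had 777, 566 and 652 CPM in LC, against 343, 372 and 325 CPM in CC (0.94 ± 0.21, edgeR adjusted p = 0.002392). The regimes were clearly apart for the sum, but 40.0% of its reads were of the hairpin class, and with mature reads only the difference was 0.45 (adjusted p = 0.181). It was 0.40 when the families alone set the scale (adjusted p = 0.38), and the most abundant member alone was not called either. The regulators of AUXIN RESPONSE FACTOR transcripts miR160 (0.22 ± 0.94) and miR167 (-0.23 ± 0.19) and the regulator of auxin receptors miR393 (0.15 ± 0.23) overlapped between regimes. miR160 was the least steady of them, with 305, 3854 and 2341 CPM in LC, against 3812, 1119.6 and 646 CPM in CC. Its sign turned to -0.26 when the families alone set the scale, as that of miR393 did, to -0.38, and miR167 was then called (adjusted p = 0.02461).

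Of the leaf and meristem families miR164 fell and miR166 rose. miR164, which restricts NAC factors of organ boundaries and leaf margins, had 1028, 399.5 and 452 CPM in LC, against 5543, 5535 and 4752 CPM in CC. Its level was 8.43-fold lower in LC with no overlap (-3.08 ± 0.36, edgeR adjusted p = 1.692e-05), and -3.66 without LC replicate 1. The Control mean of 1042 CPM was nearer to LC than to CC. miR166, which restricts HD-ZIP III factors of the upper leaf side, had 676642, 236443 and 306273 CPM in LC, against 218424, 160318 and 189436 CPM in CC (1.10 ± 0.38, adjusted p = 0.02704). The groups were separate, but the lowest LC library was near the highest CC library. The miR166 call was lost without LC replicate 1 (0.48, adjusted p = 0.2791), CC replicate 2 (adjusted p = 0.08423) or CC replicate 3 (adjusted p = 0.0629), and when the families alone set the scale (0.55, adjusted p = 0.387). miR396, which restricts growth-regulating factors, overlapped as a sum (0.30 ± 0.26), with -0.23 under the families-alone scaling.

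The 3 families that target NF-Y and GRAS factors were all called, in both directions. miR171, a regulator of GRAS factors of the meristem, had 4422, 2978 and 2709 CPM in LC, against 1526, 1981 and 1908 CPM in CC (0.90 ± 0.23, edgeR adjusted p = 0.006111). All LC libraries were above CC, but without LC replicate 1 the difference of 0.63 did not pass (adjusted p = 0.07887), nor did it when the families alone set the scale (0.35, adjusted p = 0.4271) or with library size alone (0.62, adjusted p = 0.05478). miR170, of the same target group, had 51.6, 4.35 and 5.37 CPM in LC, against 5.49, 5.21 and 3.48 CPM in CC. Only LC replicate 1 was high, and without it the difference was 0.02 (adjusted p = 0.9637), so the call of 2.09 ± 0.77 (adjusted p = 0.03215) is that of 1 library, and it was also lost without any 1 of the CC libraries. miR169, a regulator of NF-YA subunits, had 21.2, 3.35 and 1.24 CPM in LC, against 61.0, 32.3 and 33.5 CPM in CC (-2.32 ± 0.76, adjusted p = 0.02132). Its groups did not overlap, and without LC replicate 1 the fall was steeper (-4.11), while the call was lost without LC replicate 2 (adjusted p = 0.05799) or CC replicate 1 (adjusted p = 0.05508).

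Of the 3 small-RNA machinery families, miR168 rose, miR403 was called lower under some settings and miR162 was not called. miR168, which represses ARGONAUTE1, had 56044, 26481 and 22870.1 CPM in LC, against 11118, 7899 and 5278 CPM in CC, a rise of 4.34-fold without overlap (2.12 ± 0.34, edgeR adjusted p = 0.0002182). Leaving out LC replicate 1 gave a miR168 difference of 1.63 (adjusted p = 0.0001141). miR403, which targets ARGONAUTE2, had 2426, 3081 and 2871 CPM in LC, against 3680.2, 3644 and 4419 CPM in CC. It was lower in every LC library (-0.49 ± 0.17, adjusted p = 0.02857), but the call was lost under 10 of 17 alternatives (adjusted p up to 0.2451), among them other scalings and filters, DESeq2, and leaving out LC replicate 1 or CC replicate 3. miR162, which acts on DICER-LIKE 1, had 9779.7, 6142 and 10949 CPM in LC, against 5933, 6857 and 5590.0 CPM in CC, with overlap (0.55 ± 0.39, adjusted p = 0.2537). miR482, the only measured family of the resistance-gene list, also overlapped (0.63 ± 0.32, adjusted p = 0.1082), and passed under 6 of 17 alternatives, DESeq2 among them. Of 9 measured families known to respond to cold in Arabidopsis, 4 were higher, 1 lower and 4 not called, and their median of 0.70 was close to that of all families.

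Outside the lists, miR477 and miR4995 were called lower. miR477 had 19.8, 1.0 and 1.65 CPM in LC, against 50.7, 94.4 and 63.2 CPM in CC. The regimes were fully apart, and the difference was -3.24 ± 0.90 (edgeR adjusted p = 0.009816), or -5.72 without LC replicate 1, the library with most of the LC reads. miR4995 had 29.0, 61.6 and 56.2 CPM in LC, against 33.3, 372 and 84.7 CPM in CC (-1.74 ± 0.65, adjusted p = 0.03281). It overlapped between the regimes and rested on CC replicate 2, without which the difference was -0.27 (adjusted p = 0.6064); the call was also lost without LC replicate 1 or LC replicate 3, and under 9 of 17 alternatives in all. miR394, miR845, miR5368 and miR6300 did not pass, and all 4 overlapped.

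Among single entries, 76 of the 179 tested (42.5%) were called, 33 higher and 43 lower, and known and predicted entries split in opposite directions. Without LC replicate 1 the count was 77, with 36 higher and 41 lower, 65 of them shared. Which direction had more calls depended on the setting, with 43 higher and 38 lower when all reads set the library size, and 32 higher and 31 lower without CC replicate 2. Known names were called in 35 of 105 (33.3%), 24 higher (22.9%) and 11 lower (10.5%), with a median difference of 0.44. Predicted entries were called in 41 of 74 (55.4%), 9 higher (12.2%) and 32 lower (43.2%), with a median of -0.52. The known names that fell furthest included miR164a_4, with 842, 423 and 466 CPM in LC, against 5265, 5922 and 5792 CPM in CC (-3.29 ± 0.34, edgeR adjusted p = 1.345e-05), which carries nearly all of the fall of its family. miR396b-3p_2 had 6.42, 17 and 14.1 CPM in LC, against 179, 137 and 101 CPM in CC. Separate regimes were a condition for naming it, and the sum of its family overlapped. miR477a_3 had 3 reads in LC replicate 1 and none in the other LC libraries, against 17, 30 and 32 reads in CC. The known names that rose furthest included miR399a_6, with 89, 15 and 10 reads in LC against 0, 0 and 1 read in CC. miR172b-5p_4 had 36, 107 and 115 reads in LC, against 3, 2 and 1 reads in CC (adjusted p = 0.0003996). It was equally rare outside LC, with group means of 0.668, 0.347 and 0.376 CPM in LL, CL and Control. miR398b, miR398, miR399b and miR827a rose with their families.

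**Figure D2:**
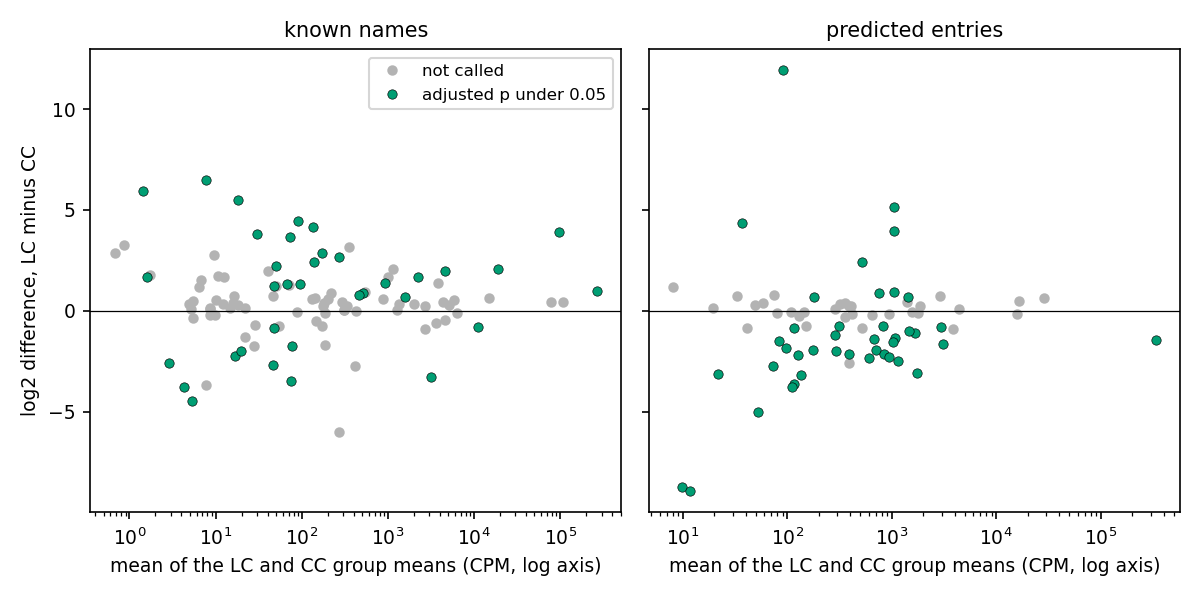
Fitted log2 difference, LC minus CC, of each tested entry against the mean of its LC and CC levels (CPM, log axis), for 105 known names (left) and 74 predicted entries (right); filled green points passed the test. Called predicted entries lie mostly below 0 (32 of 41) and called known names mostly above it (24 of 35); the fitted values of the predicted entries nearest the top and bottom edges come from entries listed at 0 in 1 regime and are not measured folds.

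A single predicted entry, novel_mir73, held 30.8% of all mature and predicted reads of the 6 libraries. It had 243836, 127639 and 172418 CPM in LC, against 469648, 558515 and 435964 CPM in CC (-1.43 ± 0.33, edgeR adjusted p = 0.004224). No LC library reached the lowest CC library, but the call was lost without CC replicate 2 (-0.999, adjusted p = 0.106). The table places it on the minus strand of sequence CM017775.1, from 98105 to 98256, and 72 of the 76 predicted entries on the plus strand. The genome build is not given in the sources used here, and no annotation of these positions was used.

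Other predicted entries fell more steeply. novel_mir10 (CM017762.1, 15100567 to 15100671, plus strand) had 203, 534.8 and 369 CPM in LC, against 3175, 3238 and 2923 CPM in CC (-3.08 ± 0.31, edgeR adjusted p = 1.188e-05). novel_mir61 had 7.63, 18.9 and 24.6 CPM in LC, against 157.03, 218 and 267 CPM in CC (-3.65 ± 0.46, adjusted p = 6.072e-05). Also lower were novel_mir65 (-3.21 ± 0.37), novel_mir47 (-3.11 ± 0.92) and novel_mir5 (-2.72 ± 0.33). Absence of overlap between the regimes was a condition for naming all of these, so it is no further result. novel_mir47 had only 21, 0 and 11 reads in LC, and was not called without CC replicate 2 (edgeR adjusted p = 0.05847). novel_mir37 was listed at 0 in all 3 LC libraries, against 99, 31 and 63 reads in CC. Nonzero predicted entries start at 10 reads in the table, so a listed 0 need not mean that no read was seen.

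The 4 predicted entries novel_mir1 to novel_mir4 lie within 365487 bases of sequence CM017761.1 and did not move together. novel_mir1 had 645, 522 and 476 reads in LC, against 440, 369 and 304 reads in CC, a small rise (0.70, edgeR adjusted p = 0.007163). novel_mir2, the next entry (7459251 to 7459339), was listed at 0 in all LC libraries, against 70, 42 and 48 reads in CC. novel_mir3 (7523761 to 7524161) had 12820, 1299 and 1155 reads in LC, against 310, 93 and 85 reads in CC (5.17 ± 0.89, adjusted p = 0.0007375), or 3.23 without LC replicate 1. novel_mir4 (7677579 to 7677755) had 1137, 119 and 98 reads in LC and was listed at 0 in CC. So novel_mir2 was lower and its 3 neighbours higher in the cool regime, all without overlap, which was a condition for naming all but novel_mir1. novel_mir29 and novel_mir68 also rose. novel_mir29 had 2681, 1230.2 and 1944 CPM in LC, against 9.56, 279 and 84.3 CPM in CC (3.97 ± 1.08, adjusted p = 0.01012). The warm libraries spread widely, and the difference was 3.34 without CC replicate 1 and 5.72 without CC replicate 2. novel_mir68 had 325, 107 and 88 reads in LC, against 15, 0 and 13 reads in CC (adjusted p = 0.001612).

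Among the 10 entries with most reads, only novel_mir73, miR398b, miR168a-5p and miR166a-3p were called. The miR166a-3p call (0.97, edgeR adjusted p = 0.04024) was lost under 9 of 16 alternatives, among them leaving out LC replicate 1 (0.70, adjusted p = 0.1371), LC replicate 3 or any CC library. miR166a-3p made up 32.3%, 26.0% and 30.5% of mature and predicted reads in LC, against 18.8%, 14.1% and 19.2% in CC. miR858b, miR159a_1, novel_mir54, novel_mir53, novel_mir21 and miR482d-3p_2 did not pass, with differences between -0.16 for novel_mir21 and 0.62 for miR482d-3p_2 and novel_mir54.

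Reads of the hairpin class were tested as entries of their own. Of 176 hairpin entries 102 had enough reads and 15 (14.7%) were called, 8 higher and 7 lower, or 30 (24 higher, 6 lower) with all reads as library size, 24 (18 higher, 6 lower) with the scale of the miRNA entries and 14 (6 higher, 8 lower) with library size alone. Hairpin levels are relative to hairpin reads alone and cannot be set against the levels above. The largest rises and falls were named only where the regimes did not overlap. The miR399b hairpin had 13041, 4588 and 4858 CPM in LC, against 345, 391 and 231 CPM in CC (4.54 ± 0.48, edgeR adjusted p = 3.375e-05). The miR2111a hairpin had 1004, 744 and 679 CPM in LC, against 134, 99.9 and 129 CPM in CC (2.73 ± 0.36, adjusted p = 0.0001758). The miR827a hairpin had 74, 27 and 8 reads in LC and 1 read in each CC library. The miR168-5p hairpin was also higher (2.05 ± 0.50, adjusted p = 0.01481), a call lost without CC replicate 3. The miR156f-3p_1 hairpin had 1890.0, 2193 and 17794 CPM in LC, against 754, 826.9 and 956 CPM in CC (3.11 ± 0.83, adjusted p = 0.023). There LC replicate 3 was far above the rest, and without it the difference was 1.27 (adjusted p = 0.1161); the call was also lost without any 1 of the CC libraries.

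The hairpin entry with the smallest adjusted p was miR167f-3p_1, with 369.6, 567 and 313 CPM in LC, against 9485, 5569.9 and 6458 CPM in CC. That is 17.2-fold lower in LC (-4.10 ± 0.33, edgeR adjusted p = 3.732e-06), while the miR167 family as a sum overlapped. The mature entry of the same name averaged 34.9 CPM in LC and 117 CPM in CC (-1.74, adjusted p = 0.0004066). The miR396b-3p_2 hairpin had 6, 4 and 1 reads in LC, against 51, 34 and 23 reads in CC. The hairpins miR477a_3 and miR477i were also lower, and hairpin reads are 77.3% of the miR477 family, so these are not separate evidence. The miR477i call was lost without LC replicate 2 (adjusted p = 0.05169) or LC replicate 3 (adjusted p = 0.07318). The miR477a_3 hairpin had 1, 0 and 0 reads in LC, against 16, 18 and 25 reads in CC. The miR164e-5p hairpin had 1, 0 and 1 reads in LC, against 77, 57 and 2 reads in CC. CC replicate 3 was there almost as low as LC, and the call (adjusted p = 0.03283) was lost without any 1 of 5 libraries.

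The share of a family's leading name differed between regimes in some families whose sum was not called. Of 25 families with several mature names, 17 were counted as led by the same name in all 6 libraries. That count includes miR845, whose mature names had 0 reads in LC and so no leader there. In miR172, where miR172a_3 led in 5 of the 6 libraries, its share was 37.4%, 25.4% and 29.0% of mature reads in LC, against 66.1%, 76.8% and 73.4% in CC. In miR167 the share of miR167f-5p, the leading name throughout, was 39.0%, 36.9% and 36.5% in LC, against 50.1%, 47.4% and 55.9% in CC. These shares did not overlap between regimes, as in 7 of the 22 families with mature reads in every library. In miR162 and miR395 the leading name switched almost completely, but not by regime. miR162-3p and miR395b_3 held over 97% of their families' reads in LC replicates 1 and 3 and CC replicate 2. Their partners miR162a-3p and miR395a_5 led in LC replicate 2 and CC replicates 1 and 3. Over all 15 libraries the switches went together in 14, with Control replicate 1 as the exception, and their part in single-name results was not tested. Single names of those families are therefore not read as differences here. Their sums add both names, and whether the sums vary with the switch was not tested. In LC the miR162 sum was 6142 CPM in replicate 2, where miR162a-3p led, against 9780 and 10949 CPM in the others. In CC it was 5933 and 5590 CPM in replicates 1 and 3, against 6857 CPM in replicate 2. For miR395, LC replicate 2 was the lowest LC library (561 CPM), but CC replicate 3 was the highest CC library (261 CPM).

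**Figure D3:**
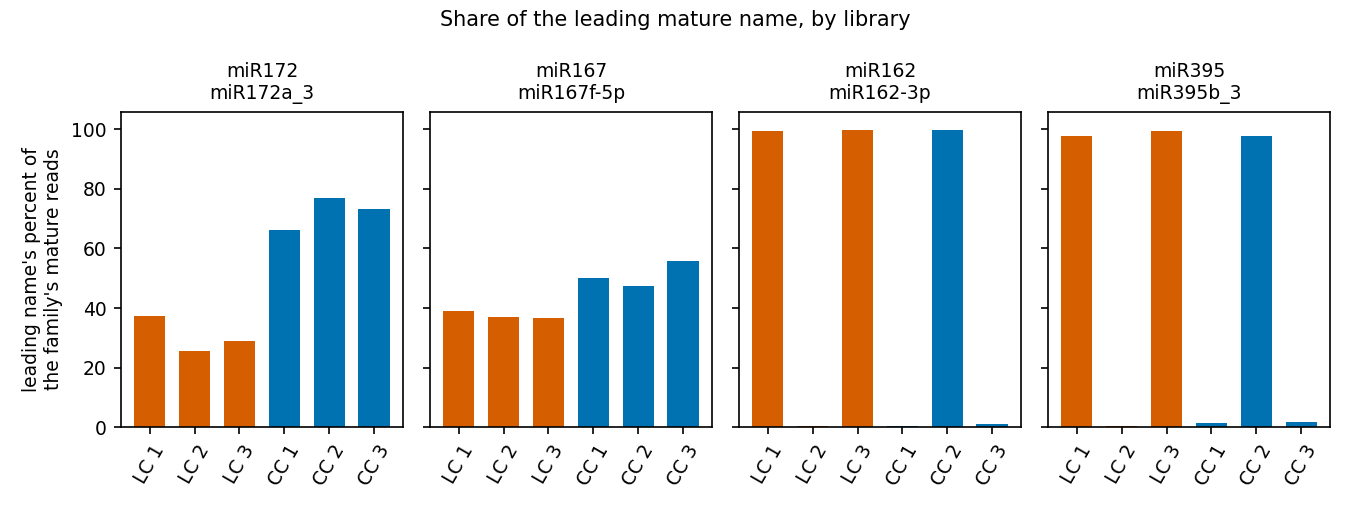
Share of the family's mature reads under its leading name (percent, from 0) in LC libraries 1 to 3 (left bars) and CC libraries 1 to 3 (right bars). miR172a_3 and miR167f-5p are lower in every LC library, whereas miR162-3p and miR395b_3 are near 100% or near 0% in the same libraries of both regimes.

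The arms of the hairpins kept their order. Of 9 families with enough arm-named reads, only miR167 and miR393 had 5p shares that did not overlap. In miR167 the 5p share averaged 99.7% in LC and 99.2% in CC, and in miR393 it averaged 99.8% in LC and 98.5% in CC. The miR393 share rests on 2, 4 and 0 reads of the 3p arm in LC, against 18, 9 and 14 in CC. It covers arm-named reads only, and miR393h, whose name gives no arm, held 90.2% to 94.0% of that family's mature reads. In miR396 the 5p share was 94.3%, 82.6% and 88.6% in LC, against 75.8%, 72% and 86.7% in CC, with overlap at LC replicate 2. In miR156 the 3p share was 11.9% in LC replicate 3 and 3.0% to 6.1% in the other 5 libraries.

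As shares of all reads, known mature miRNAs were higher and predicted miRNAs lower in the cool regime. Mature entries made up 19.7%, 10.9% and 9.63% of reads in LC, against 6.87%, 4.65% and 6.07% in CC. The groups did not overlap, and the exact permutation test over 3 against 3 libraries gave its smallest two-sided p, 0.1. Without miR398b and miR166a-3p the mature share was 4.90%, 6.09% and 4.74% in LC, against 3.62%, 2.77% and 3.50% in CC, still without overlap. Hairpin entries made up 1.57%, 0.959% and 0.882% in LC, against 0.735%, 0.543% and 0.757% in CC. Predicted entries made up 5.15%, 3.85% and 4.33% in LC, against 8.51%, 8.10% and 6.91% in CC. That last separation was carried by novel_mir73, without which the predicted share was 1.42%, 1.75% and 1.91% in LC, against 1.36%, 1.52% and 1.47% in CC. All miRNA classes together averaged 19.0% ± 6.44 in LC and 14.4% ± 1.52 in CC (SD, n = 3 each), with overlap (exact permutation p = 0.3). Without LC replicate 1 that difference was 0.878 percentage points in place of 4.59.

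**Figure D4:**
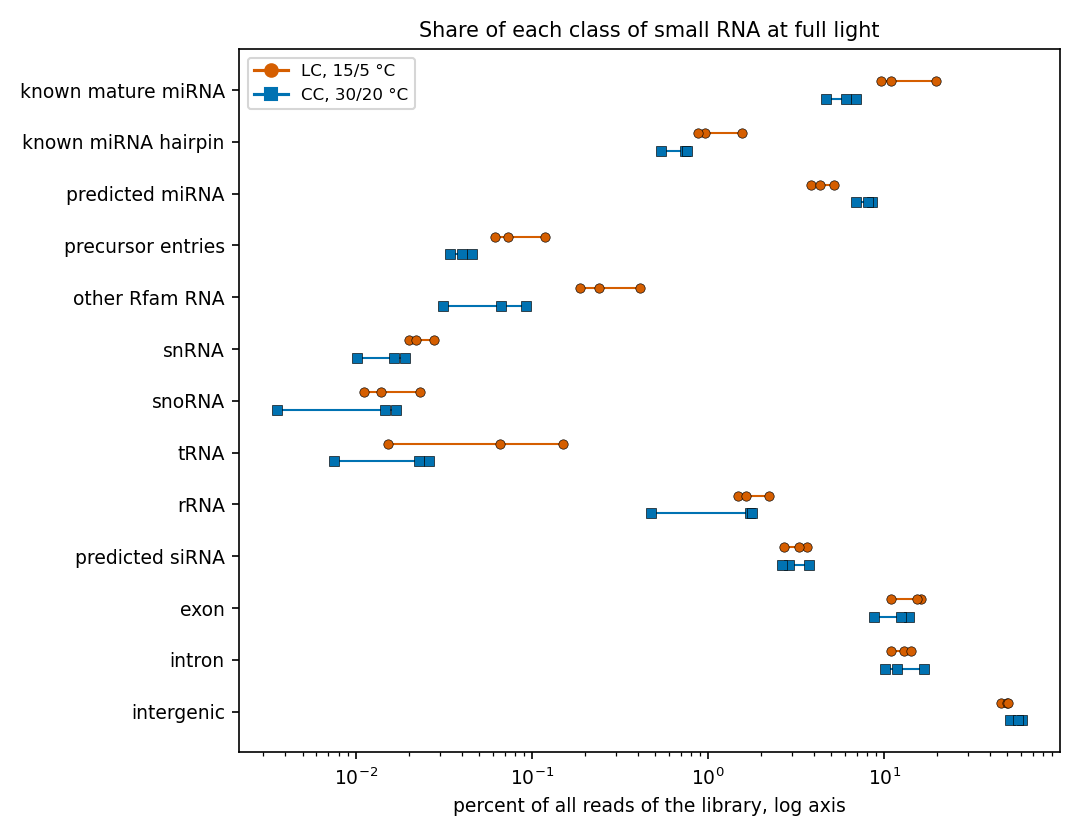
Percent of all reads of a library in each class of the table (log axis), for the 3 LC libraries (circles, upper line of each pair) and the 3 CC libraries (squares, lower line); lines span the range. Mature, hairpin, precursor, other Rfam and snRNA shares are higher in every LC library, predicted miRNA and intergenic shares are lower, and the remaining classes overlap.

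Of the 10 other classes, 4 had LC and CC libraries that did not overlap. Reads of intergenic sequence were 46%, 50% and 50.2% in LC, against 60.8%, 51.4% and 57.4% in CC. The class of other Rfam small RNAs was 0.411%, 0.188% and 0.239% in LC, against 0.0313%, 0.0667% and 0.0925% in CC. Its leading entry is named transfer-messenger RNA, an RNA known from bacteria, with 44311, 24699 and 30773 reads in LC, against 5282, 12251 and 16482 reads in CC. Shares of snRNA (0.0232% in LC and 0.0152% in CC on average) and of precursor entries (0.0842% in LC and 0.0401% in CC) were also higher in each LC library. Exon, intron, rRNA, snoRNA, tRNA and predicted siRNA shares overlapped. Among precursor entries, 66 carry animal miRNA names, of which 58 had reads in the 6 libraries, and 26 of those were at 0 in CC. Their summed level was 273, 175 and 125 reads per 1000000 reads of the library in LC, against 45.4, 25.8 and 25.6 in CC. It was at most 4.73 in LL and CL libraries, and 19.2, 202 and 211 in Control. An entry named MALAT1-associated small cytoplasmic RNA, known from mammals, had 16051, 1684 and 1897 reads in LC, against 133, 158 and 328 reads in CC. The sum of animal-named entries was thus higher in LC and in 2 Control libraries than in CC. Single entries varied, with LC replicate 1 the highest LC library for 43 of the 58, and mir-124, for example, had 23, 328 and 136 reads in LC, against 337, 120 and 73 reads in CC. Their part in the results above was not tested. The 23 plant-named precursor entries summed to 909, 555 and 490 reads per 1000000 in LC, against 412, 317 and 376 in CC.

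Whether light altered the temperature effect was tested as the difference between LC minus CC and LL minus CL. Of 34 families 11 (32.4%) passed, 7 with a higher and 4 with a lower value at full light, and of 179 entries 62 (34.6%). LL against CL itself had 12 families called (35.3%). With the families alone setting the scale, 10 passed, 2 higher and 8 lower, and without LC replicate 1 also 10, 4 higher and 6 lower. miR156 was 1.75 higher in LC than in CC but 0.82 lower in LL than in CL on the log2 scale (interaction 2.56 ± 0.33, edgeR adjusted p = 5.295e-05), and miR157 turned in the same way (1.44 ± 0.28, adjusted p = 0.001183), a call lost with the families-alone scaling (0.95, adjusted p = 0.1068). miR164 went the other way, -3.08 at full light and 0.95 at 40% light (-4.02 ± 0.49, adjusted p = 5.295e-05, and -4.83 without LC replicate 1). miR477 and miR169 were lower in LC but higher in LL, each than its warm counterpart, with interactions of -10.20 ± 1.48 and -5.24 ± 1.10. Without LC replicate 1 these were -12.86 and -7.25, and the miR477 value rests on 2, 1 and 1 reads in CL, so its size is no measured fold. For miR2111 the rise at full light had a difference of only 0.28 beside it at 40% light (interaction 2.85 ± 0.51, adjusted p = 0.0007908), and for miR168 the 40% light value was 0.27 (1.84 ± 0.47, adjusted p = 0.007896). The miR168 interaction was 1.14 without LC replicate 1 (adjusted p = 0.01827) and did not pass with the families-alone scaling (1.34, adjusted p = 0.07251). miR171, miR858 and miR393 also had higher values at full light, by 0.92 ± 0.33, 1.73 ± 0.53 and 0.98 ± 0.33, but none of these 3 passed without LC replicate 1 (adjusted p = 0.4294, 0.07322 and 0.178) or with the families-alone scaling. Of the nutrient families, miR827 rose less at full light than at 40% light (-1.42 ± 0.31, adjusted p = 0.002999), a call lost with library size alone (adjusted p = 0.05876). The interaction did not pass for miR399 (-1.77 ± 0.69, adjusted p = 0.05938), miR395, miR397, miR398 and miR408, although without LC replicate 1 that of miR399 was -3.13 (adjusted p = 4.9e-05).

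**Figure D5:**
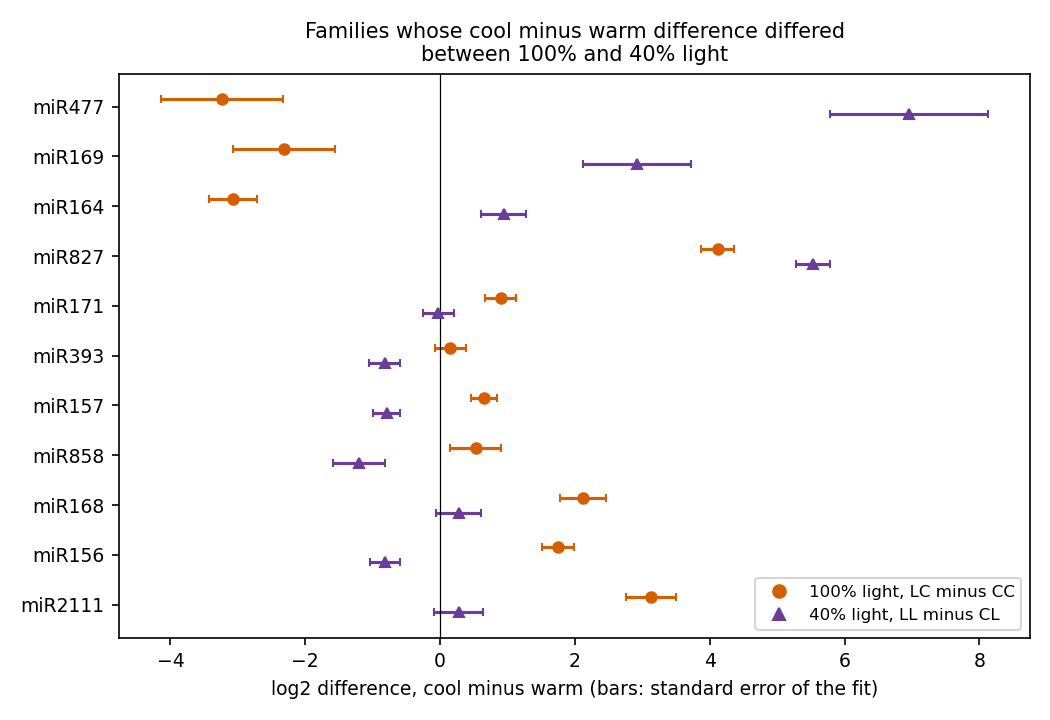
Cool minus warm log2 difference of the 11 families that passed the interaction test, at 100% light (circles, LC minus CC, upper of each pair) and at 40% light (triangles, LL minus CL, lower); bars are standard errors of the fit. miR156, miR157, miR164, miR169 and miR477 were called with opposite signs at the 2 light levels.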

How the data were processed

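Small RNA was sequenced from leaves of 15 samples in 5 groups of 3, of which LC and CC are compared. Per the labels' protocols, total RNA was taken up in ligation libraries, amplified by PCR and size-selected on gels. The authors deposited 1 table with counts, that is, numbers of reads per small-RNA entry, and TPM values. The deposited TPM values equal reads scaled to 1000000 per library and entered only 1 alternative for the shares. The sources used here do not give the trimming, the aligner, the genome build or how mature and hairpin reads were told apart, and the table holds no sequences.

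Counts were tested in edgeR 4.0.16 (R 4.3.3) with filterByExpr, TMM factors, 1 mean per group over all 15 libraries, the quasi-likelihood test and Benjamini-Hochberg adjustment. The biological coefficient of variation was 0.679 for entries, 0.428 for families and 0.768 for hairpins. Families sum mature and hairpin reads of 1 miRNA number and were scaled together with the predicted entries; adjustment was over the 34 families. Entries with few reads were not tested (64 mature or predicted, 74 hairpin, 1 family, miR530). Named are listed and called families, the 10 largest rises and falls among called entries without overlap and at least 10 CPM (5 each for hairpins), the 10 most abundant, and entries at 0 in 1 regime. novel_mir1, the mature miR167f-3p_1 and the entries of other classes were named after their values were seen. Members and lists were chosen with earlier results of these data known. Intervals are not given for shares because each group has 3 libraries, whose spread is shown, and p-values refer to the spread between these libraries, which may be partly technical. The scripts were tested on simulated data. Alternatives were other scalings, filters, DESeq2 1.42.0, the replicate block, LC and CC libraries alone, and leaving out each library.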

Additional observations from a re-analysis of the deposited data

Results flagged for a closer look

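Of 69 families, entries and hairpins named by rule, 34 passed edgeR's quasi-likelihood test of the interaction. In these, the cool minus warm difference at full light (LC minus CC) differed from that at 40% light (LL minus CL). Over all tested, 32.4% of families and 34.6% of entries passed. Many entries and hairpins were named for a large LC minus CC difference, which is part of this contrast. Their count is therefore no result about the named set. The values here are that difference of differences on the log2 scale. LC and CC, and LL and CL, share no libraries, and no cause was tested. Negative values among families were those of miR477 (-10.20), miR169 (-5.24), miR164 (-4.02) and miR827 (-1.42). Positive values were those of miR2111 (2.85), miR156 (2.56), miR168 (1.84), miR858 (1.73), miR157 (1.44), miR393 (0.98) and miR171 (0.92). With the families-alone scaling miR168, miR858, miR157, miR393 and miR171 did not pass (adjusted p = 0.07251, 0.09418, 0.1068, 0.5927 and 0.6639). miR171 was lost under 13, miR393 under 10 and miR858 under 7 of 22 alternatives, and miR827 with library size alone.

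Among known single names the interaction was negative for miR477a_3 (-10.98), miR396b-3p_2 (-4.43), miR164a_4 (-4.37) and miR827a (-1.94). It was positive for miR172b-5p_4 (4.67), miR168a-5p (1.72) and miR858b (1.47). miR172b-5p_4 had 36, 107 and 115 reads in LC, and group means under 1 CPM in LL, CL, CC and Control. The call was lost for miR858b under 5 of 21 alternatives, for miR827a with library size alone and for miR172b-5p_4 without CL replicate 3 (adjusted p = 0.1882).

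Predicted entries with a negative value were novel_mir61 (-4.76), novel_mir65 (-2.94), novel_mir5 (-2.62), novel_mir10 (-2.35) and novel_mir73 (-2.06). Those with a positive value were novel_mir29 (4.25) and novel_mir54 (1.33). The call was lost for novel_mir29 under 5 of 20 alternatives, each leaving out 1 library, and for novel_mir73 without CC replicate 2 or CL replicate 2. The fitted values of novel_mir37 (-8.71), novel_mir2 (-7.93) and novel_mir4 (8.95) come from entries listed at 0 in LC or CC and are no measured folds.

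Among hairpin entries the interaction was negative for miR477a_3 (-13.57), miR477i (-9.07), miR164e-5p (-8.33), miR396b-3p_2 (-4.13) and miR167f-3p_1 (-3.28), and positive for miR2111a (2.48). miR477a_3 had no hairpin reads in CL, so its size is no measured fold. The hairpin interactions were not recomputed under alternatives. The hairpin entries share their families with the mature names and are no independent evidence.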

How the results depend on the processing

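Of 1097 values of named entries under alternatives, 964 kept their direction and side of the threshold, 95 lost and 22 gained the call, and 16 changed sign, none of them called. With only the LC and CC libraries fitted, 43 entries, 11 families and 9 hairpins were called in place of 76, 20 and 15, and the 9 families lost were miR157, miR159, miR166, miR169, miR170, miR171, miR403, miR477 and miR4995. Without predicted entries 32 of 105 known entries were called, 31 of them also called in the main fit, where 35 of 105 known entries passed. For the interaction that setting called 24 known entries. The interaction gave 7 families when the most abundant member stood for the sum. Hairpin calls were 30 when every read of the table counted towards library size, 31 with DESeq2 and 24 with the scale of the miRNA entries. For the interaction of entries (17 higher and 45 lower of 62), library size alone gave 22 higher and 33 lower and all reads as library size 25 higher and 35 lower. Leaving out 1 library gave 63 to 77 entries, 15 to 20 families, 10 to 15 hairpins, 8 to 14 families and 51 to 65 entries for the interaction, 4 to 5 other classes and 2 to 4 arm shares without overlap, and a difference in the share of all miRNA classes of 0.878 to 6.66 percentage points. As percent of reads outside exon, intron and intergenic classes that difference was 0.976, and 2 other classes did not overlap. Signs turned, without a call, when families alone set the scale, for miR160 (-0.26), miR393 (-0.38), miR396 (-0.23), miR828 (-0.11) and miR858 (-0.011). Signs also turned for miR393 with library size alone (-0.036) and mature reads only (-0.10) and for miR172 with its most abundant member (-0.54). Leaving out 1 library turned miR160 (-0.49 to 1.30 over the libraries), novel_mir53 (-0.48 to 0.96) and novel_mir21 (-0.53 to 0.27), the last also with all reads as library size (0.10). The cause of these changes was not tested. That last setting moved the median over entries by 0.21 and over hairpins by 0.48.

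Same-numbered LC and CC libraries had correlations of their deviations from the group means of 0.02, -0.42 and -0.17. Those of differently numbered libraries ran from -0.289 to 0.428. Deviations from a mean of 3 libraries constrain one another, so these values cannot show whether the numbers pair the libraries. With the replicate block 75 entries, 18 families and 12 hairpins were called, with 57 entries and 12 families for the interaction. With 3 libraries per group no exact test of a share can go below 0.1. Entries left out of the test for few reads give no answer either way.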
